A study of Mus musculus with 33 samples.

Results

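Ctnnb1, Col5a1 and Nfix name 3 windows of the mouse genome that held some of the widest stretches bound by MLL3 in growing C2C12 myoblasts. The windows, in build mm9, were chr9:120830000-120880000 for Ctnnb1 (50.0 kb), chr2:27735000-27900000 for Col5a1 (165.0 kb) and chr8:87215000-87330000 for Nfix (115.0 kb). They were chosen by the width of their MLL3 peaks, so every MLL3 value below is a description and supports nothing. Members are all peaks of any list that overlap a window. There were 352 of them among the 493022 nuclear peaks of 23 lists, 257 in the 9 pooled or single lists and 95 in the 14 lists of single replicates. Of the 23 lists, 19 had at least 1 peak in the windows.

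C2C12 is a mouse myoblast line that fuses into multinucleated myotubes when serum is reduced. Myoblasts grew in medium with 10% fetal bovine serum, and myotubes were taken after 96 h in 2% horse serum. Sites of protein binding on sonicated chromatin were mapped by chromatin immunoprecipitation and sequencing (ChIP-seq), with antibodies against the protein itself. ING1 was the exception: it was pulled down by anti-FLAG from puromycin-selected cells that carried a viral construct and ectopically expressed the Flag-tagged protein, in both states. Myoblast lists were available for MLL3 and LSD1 (1 list each), Menin (2 replicates), Wdr5 (3), MLL1 (2) and ING1 (2), and myotube lists for LSD1 (1 list), ING1 (3) and Sin3A (2). Of 33 samples, 17 had a list. The 10 inputs and the 6 RNA-seq libraries from knockdown experiments with small interfering RNA were not analysed here. Nothing in the labels says that replicates were separate cultures, so their spread may be technical, and peak positions offered no marker with which to check the labelled cell states.

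MLL3 belongs to the methyltransferases that place the first methyl group on lysine 4 of histone H3 (H3K4) and is known for its work at enhancers. MLL1 acts with Menin, and Wdr5 is a core subunit that MLL complexes share. LSD1 removes methyl groups from H3K4. ING1 reads trimethylated H3K4 and brings in the histone deacetylase complex that is built on the scaffold Sin3A. Ctnnb1 encodes β-catenin, which acts in cadherin adhesion and as the nuclear effector of Wnt signalling. Col5a1 encodes a chain of type V collagen, which starts the assembly of collagen fibrils, and Nfix encodes a nuclear factor I protein known for the switch from embryonic to fetal muscle genes.

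The 3 genes differ in the DNA ahead of their farthest upstream listed start. It is shown because MLL1 complexes and readers of trimethylated H3K4 are known from CpG-rich promoters. The 250 bases before the start listed farthest upstream are given 5′ to 3′ from RefSeq (GRCm38.p6), with each CpG in capitals.
Ctnnb1: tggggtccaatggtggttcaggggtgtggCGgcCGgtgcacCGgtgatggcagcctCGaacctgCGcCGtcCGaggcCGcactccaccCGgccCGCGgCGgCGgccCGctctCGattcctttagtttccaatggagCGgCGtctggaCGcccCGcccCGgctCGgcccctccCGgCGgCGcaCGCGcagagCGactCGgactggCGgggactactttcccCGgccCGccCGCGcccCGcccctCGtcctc
Col5a1: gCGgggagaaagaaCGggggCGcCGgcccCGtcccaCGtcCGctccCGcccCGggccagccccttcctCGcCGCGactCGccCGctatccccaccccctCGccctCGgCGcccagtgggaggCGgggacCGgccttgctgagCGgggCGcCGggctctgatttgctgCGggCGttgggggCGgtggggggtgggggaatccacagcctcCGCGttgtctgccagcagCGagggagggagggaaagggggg
Nfix: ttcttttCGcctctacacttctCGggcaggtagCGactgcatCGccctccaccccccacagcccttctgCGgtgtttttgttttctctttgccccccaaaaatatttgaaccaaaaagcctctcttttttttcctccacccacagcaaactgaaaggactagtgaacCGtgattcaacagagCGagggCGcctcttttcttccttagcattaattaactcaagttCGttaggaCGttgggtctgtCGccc
The motif searched was CG, which reads the same on both strands. The Ctnnb1 stretch (chr9:120933150-120933399, plus strand, the farther upstream of 2 listed) held 35 CpG and the Col5a1 stretch (chr2:27886175-27886424, plus strand) held 28. As many were found in 2.97% and 7.61% of 32851 mouse promoters, whose median was 6. The Nfix stretch (chr8:84780083-84780332, minus strand, the farthest upstream of 4 listed) held 11, a number reached by 35.6% of promoters. The G and C content was 74.8% for Ctnnb1, 76.4% for Col5a1 and 49.2% for Nfix, against a median of 52.4%. The other listed starts of Ctnnb1 and Nfix are not shown, so these values need not hold for them. These coordinates belong to GRCm38.p6 and the peaks to mm9, so no peak was placed on a gene, exon or start site. In the same RefSeq table the genes next to Ctnnb1 are Rpl14 and Ulk4, those next to Col5a1 are Rxra and Fcnb, and those next to Nfix are Lyl1 and Dand5.

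MLL3 in myoblasts filled most of each window. Its peaks covered 63.3% of the Ctnnb1 window (7 peaks), 69.1% of the Col5a1 window (43 peaks) and 53.2% of the Nfix window (15 peaks), where back-to-back genome windows of the same lengths averaged 6.6%. A peak was called wide at 5 kb or more. By this rule 10 of the 65 MLL3 peaks were wide, the narrowest of them 5088 bp and the widest of the others 4581 bp. The Ctnnb1 window held 1, chr9:120843629-120865438, which at 21810 bp was the widest of 218204 MLL3 peaks. The widest of the 6 in the Col5a1 window, chr2:27764966-27784046, was 19081 bp and ranked 2, and the widest of the 3 in the Nfix window, chr8:87246074-87261568, was 15495 bp and ranked 5. The peaks that ranked 3 and 4, at 17863 and 16129 bp, lay outside the windows.

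The MLL3 stretches were divided differently in the 3 windows. The median gap between neighbouring MLL3 peaks was 797.5 bp at Ctnnb1, 352.0 bp at Col5a1 and 676.5 bp at Nfix. With gaps up to 500 bp closed, the widest stretch became chr2:27748729-27790062 at Col5a1, 41334 bp and second widest of 187200 in the genome. At Ctnnb1 the widest joined stretch was 24729 bp and ranked 13, and at Nfix it was 21089 bp and ranked 24. Col5a1 therefore held the longest near-continuous stretch and Ctnnb1 the longest unbroken one. The MLL3 peak at the left edge of the Nfix window began outside it.

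**Figure D1:**
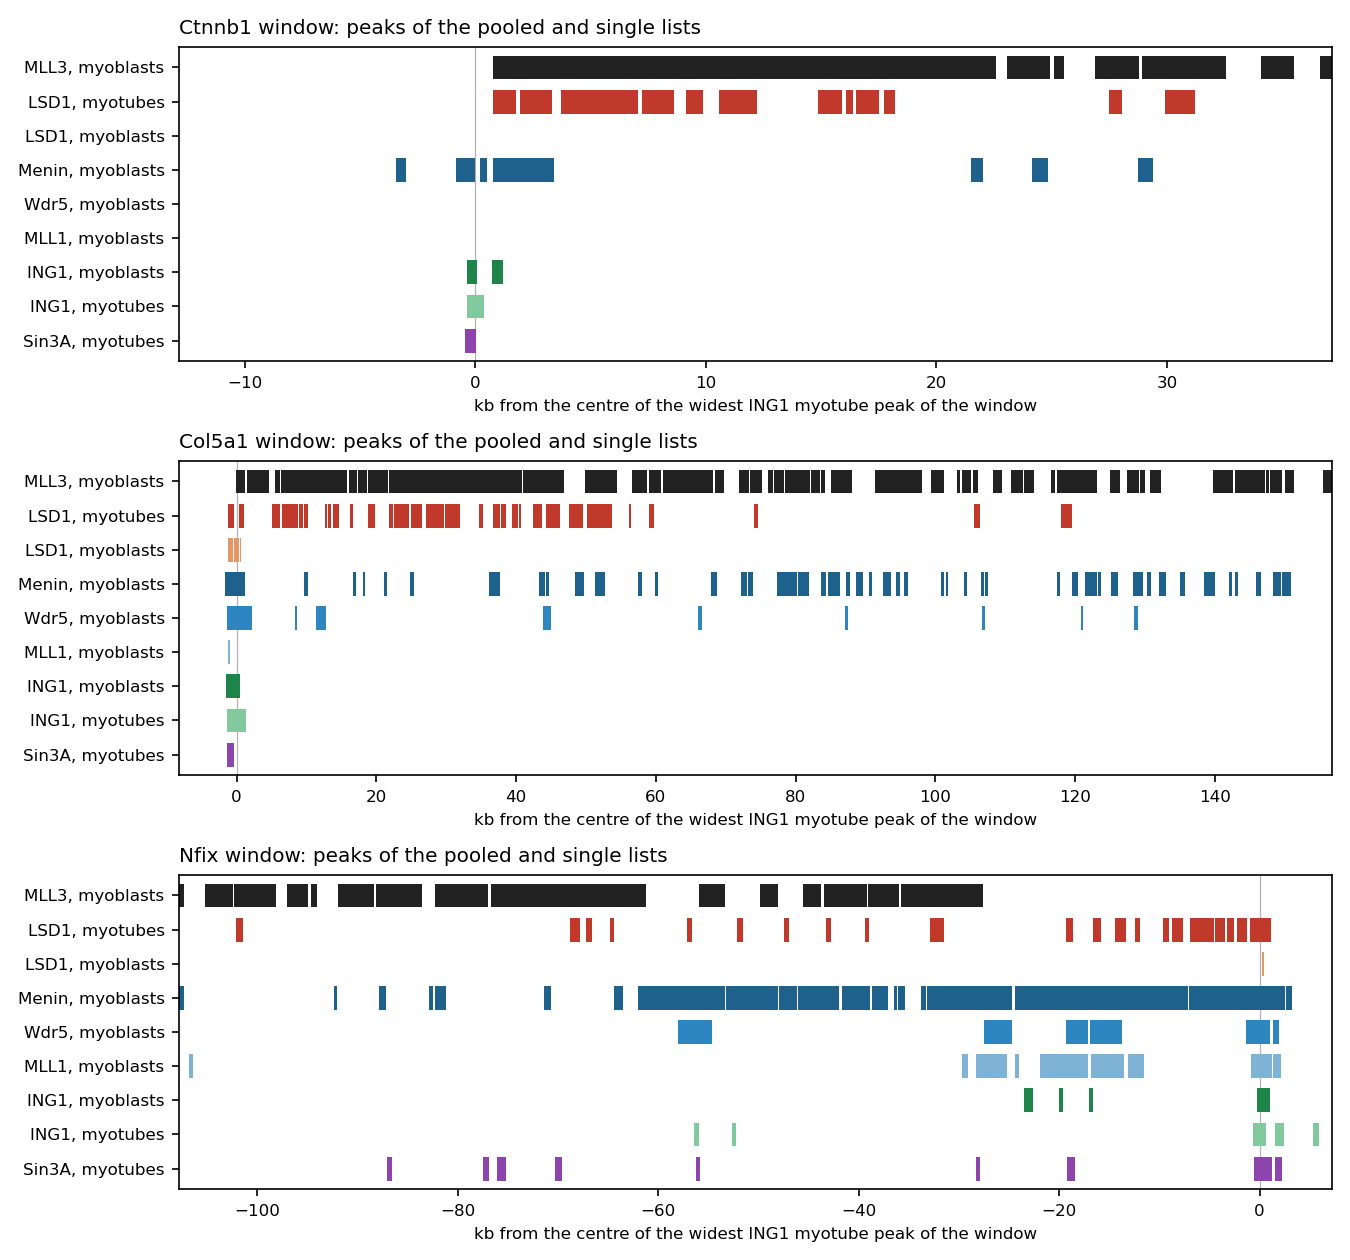
Peaks of the 9 pooled and single lists in the 3 windows. The x axis gives the distance in kb from the centre of the window's widest ING1 myotube peak, and each bar is 1 peak, to scale. LSD1 of myotubes follows MLL3 at Ctnnb1 (12 of 12 peaks touch MLL3) and mostly lies off it at Nfix (7 of 21, 33.3%). Of all LSD1 myotube peaks 25.5% touch MLL3.

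LSD1, the H3K4 demethylase, had few peaks in the windows in myoblasts and many in myotubes. The myoblast list had 0 peaks in the Ctnnb1 window, 3 in the Col5a1 window and 1 in the Nfix window. The myotube list had 12, 31 and 21 peaks, which covered 28.6%, 20.8% and 16.0% of the windows, against a mean of 0.511% for genome windows of the same lengths. As many LSD1 myotube peaks were found in 0.337% of genome windows as long as the Ctnnb1 window, in 0.231% for Col5a1 and in 0.309% for Nfix. All 3 windows were thus among the richest in LSD1 of myotubes.

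Of the 64 LSD1 myotube peaks, 61 (95.3%) met no LSD1 myoblast peak, where the share over the whole myotube list was 88.5%. The 2 lists had 4442 and 16504 peaks, a 3.72-fold difference. Each is a single list without a replicate check, so a difference between states cannot be told apart from a difference between 2 lists of unequal length. When the myotube list was shortened to its widest 4449 peaks, those of at least 852 bp, the windows kept 8, 15 and 8 peaks, 31 of 64 (48.4%), where 27.0% of the whole list was kept. The myotube peaks here were also wider, with medians of 1010, 849 and 740 bp in the Ctnnb1, Col5a1 and Nfix windows against 627 bp over the list.

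The LSD1 myotube peaks lay on the MLL3 stretches of myoblasts at Ctnnb1 and Col5a1 and mostly off them at Nfix. All 12 peaks at Ctnnb1 touched an MLL3 peak, as did 28 of 31 at Col5a1 and 7 of 21 (33.3%) at Nfix. Together this was 47 of 64 (73.4%), where 25.5% of all LSD1 myotube peaks did. By number of peaks, lying mostly off MLL3 was thus the rule for the whole list and not particular to Nfix. MLL3 filled more than 50% of each window, which raises such shares, so base pairs on and off MLL3 were also compared within a window. At Ctnnb1, LSD1 of myotubes covered 45.1% of the base pairs under MLL3 and 0.0272% of the others, which was 5 bp in all. At Col5a1 it covered 26.5% and 8.18%. At Nfix the order turned, with 8.05% on and 24.9% off MLL3. Over the genome the values were 1.51% and 0.441%.

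**Figure D2:**
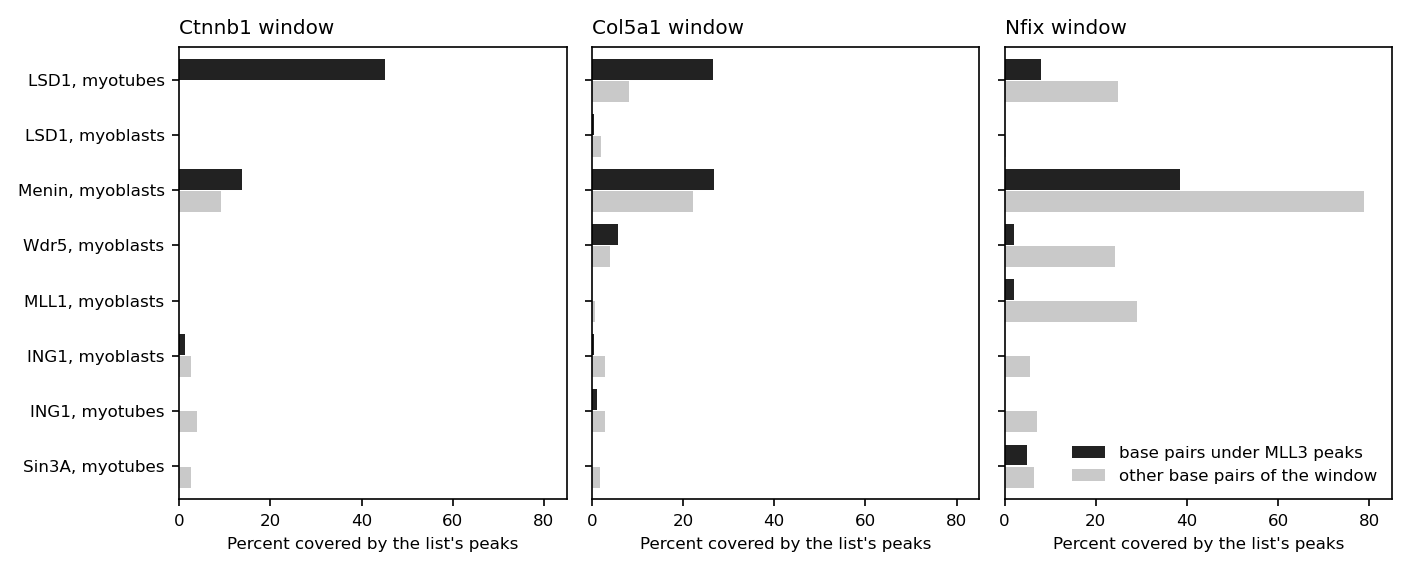
Percent of base pairs covered by each of 8 lists, on the x axis, for base pairs under myoblast MLL3 peaks (black bars) and for the other base pairs of the same window (grey bars). LSD1 of myotubes is higher on MLL3 at Ctnnb1 (45.1% against 0.0272%) and Col5a1 (26.5% against 8.18%) and lower on it at Nfix (8.05% against 24.9%).

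The 10 wide MLL3 peaks were set beside the 344 MLL3 peaks of at least 5 kb in the genome, the closest comparison by width. Of the 10, 7 met an LSD1 myotube peak, where 55.8% of the 344 did. The share under LSD1 had a median of 22.7% here and 6.79% (interquartile range 0 to 27.0%) over the 344. The members were not alike. LSD1 of myotubes covered 56.7% of the Ctnnb1 domain, in 10 separate peaks, and 63.5% of the widest Col5a1 peak, in 11. Shares at least as high were found in 9.01% and 6.1% of the wide MLL3 peaks. At Col5a1 the flanking wide peaks chr2:27749625-27759081 and chr2:27784171-27790062 had 53.3% and 56.7%. The next 2 to the right, chr2:27804289-27811391 and chr2:27834566-27841319, had 0%, and the last, chr2:27861260-27866347, had 29.0%. At Nfix the values were 0% on chr8:87240480-87245837, 13.1% on the widest peak and 16.4% on chr8:87286957-87295226. High LSD1 coverage was thus found at Ctnnb1 and in the left part of the Col5a1 window.

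**Figure D3:**
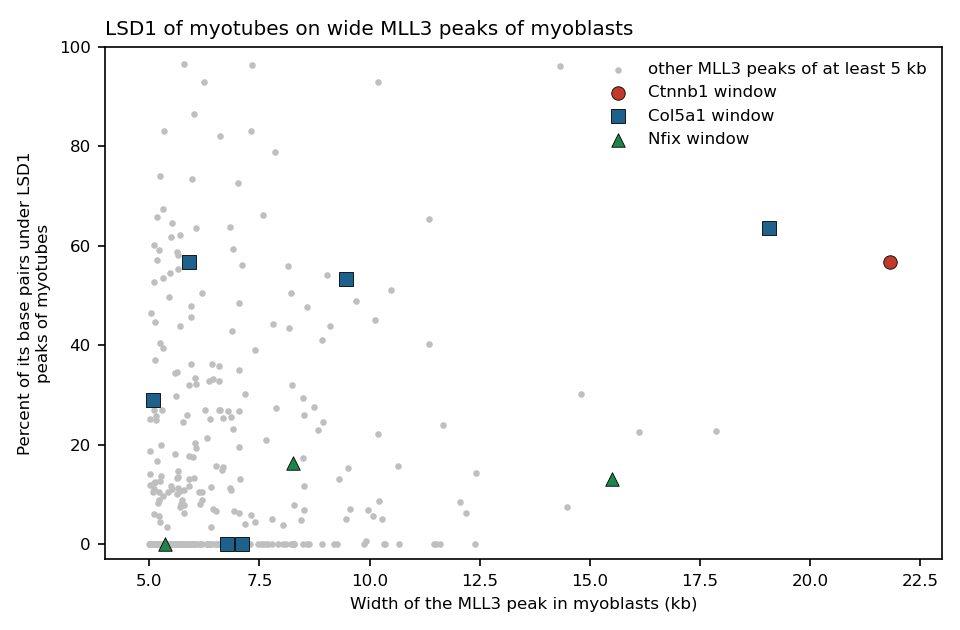
Width in kb (x axis) of all 344 MLL3 peaks of at least 5 kb and the percent of each under LSD1 peaks of myotubes (y axis), 1 point a peak, coloured for the 10 in the windows. The Ctnnb1 peak and 3 of the 6 Col5a1 peaks sit above 50%, the 3 Nfix peaks at 16.4% or lower.

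Counted over MLL3 peaks of any width, 20 of the 65 (30.8%, exact binomial 95% interval 19.9 to 43.4) met an LSD1 myotube peak, against 1.69% of all MLL3 peaks, most of which are far narrower. With the LSD1 list shortened as above the share was 18.5%, against 0.455%. For LSD1 of myoblasts it was 2 of 65, against 0.365%, and 0 of the 10 wide ones, against 7.56% of wide MLL3 peaks. Of those 2, 1 was the MLL3 peak across the left edge of the Nfix window, met by LSD1 of myoblasts only outside the window. The shares for Wdr5, ING1 and Sin3A below count that MLL3 peak in the same way. Intervals on shares cover counting error only, and the peaks of a window are not independent of each other.

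Menin, the partner of MLL1, covered more of the Nfix window than MLL3 did and came next after MLL3 at Col5a1. Its pooled list covered 12.1% of the Ctnnb1 window (7 peaks), 25.3% of the Col5a1 window (47 peaks) and 57.4% of the Nfix window (20 peaks), against a genome mean of 2.69%. As much Menin was found in 7.28% of genome windows as long as the Ctnnb1 window, in 0.668% for Col5a1 and in 0.00448% for Nfix, that is in 1 of 22344. In replicate lists 1 and 2 the Nfix window was covered to 45.4% and 34.6%. The Ctnnb1 window fell to 2.6% and 2.01% in them, and the Col5a1 window to 5.73% and 1.26%. The Menin cover of Nfix was thus present in both replicates, and most of that of Ctnnb1 and Col5a1 came from the pooled list alone.

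Menin met 45 of the 65 MLL3 peaks (69.2%, interval 56.6 to 80.1), against 9.02% of all MLL3 peaks, and all 10 wide ones, against 61.6% of wide MLL3 peaks. With the union of the 2 replicate lists the share was 29.2%, against 3.04% over the genome. With replicate 2 alone it was 16.9%, against 1.56%, and with replicate 1 alone 27.7%, against 2.53%. Of the 10 wide MLL3 peaks 6 met a replicate peak of Menin, against 40.1% of wide MLL3 peaks, and the 4 others were all at Col5a1. In the other direction 57 of 74 Menin peaks (77.0%) lay on MLL3, against 28.9%. No replicate list held a peak at 52 of the 74 (70.3%), close to the 71.1% of the whole pooled list, and in the Col5a1 window this was so for 37 of 47. Within the windows Menin covered 13.8% of MLL3 base pairs and 9.14% of the others at Ctnnb1, and 26.8% and 22.2% at Col5a1. At Nfix it covered 38.4% on and 78.9% off MLL3, the same order there as for LSD1 of myotubes.

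Wdr5 and MLL1, the other members of MLL complexes, covered more of the Nfix window than of the other 2, although Wdr5 had more peaks at Col5a1. Wdr5 covered 0%, 5.23% and 12.5% of the Ctnnb1, Col5a1 and Nfix windows (0, 9 and 6 peaks), against a genome mean of 1.79%. MLL1 covered 0%, 0.224% and 14.8% (0, 1 and 9 peaks), against 0.249%, and 0.0358% of genome windows as long as the Nfix window had as much MLL1. In the Nfix window Wdr5 replicates 1, 2 and 3 covered 5.39%, 1.98% and 3.62%, and MLL1 replicates 1 and 2 covered 11.8% and 4.77%, so each replicate list had peaks there. At Col5a1 the only replicate list with a peak was Wdr5 replicate 1 (1.29%), and none had one at Ctnnb1.

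Wdr5 met 10 of the 65 MLL3 peaks (15.4%, interval 7.63 to 26.5), against 6.12% of all MLL3 peaks. Of the 10 wide ones it met 4, against 45.1% of wide MLL3 peaks. In the union of its replicate lists it met 2 of the 10, against 12.5%. With the union of the 3 replicate lists the share was 7.69%, against 1.13% of all MLL3 peaks. It was 4.62% without replicate 1 (all MLL3 peaks 0.642%), 7.69% without replicate 2 (1.06%) and 6.15% without replicate 3 (1.02%). MLL1 met 1 of the 65, against 0.701%, and 1 of the 10 wide ones, against 8.14%. On MLL3 lay 9 of 15 Wdr5 peaks, against 22.0%, of which 8 of 9 at Col5a1 and 1 of 6 at Nfix, and 2 of 10 MLL1 peaks, against 17.0%. At Nfix both were denser off MLL3. Wdr5 covered 2.16% on and 24.3% off MLL3, and MLL1 covered 2.09% and 29.1%.

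**Figure D4:**
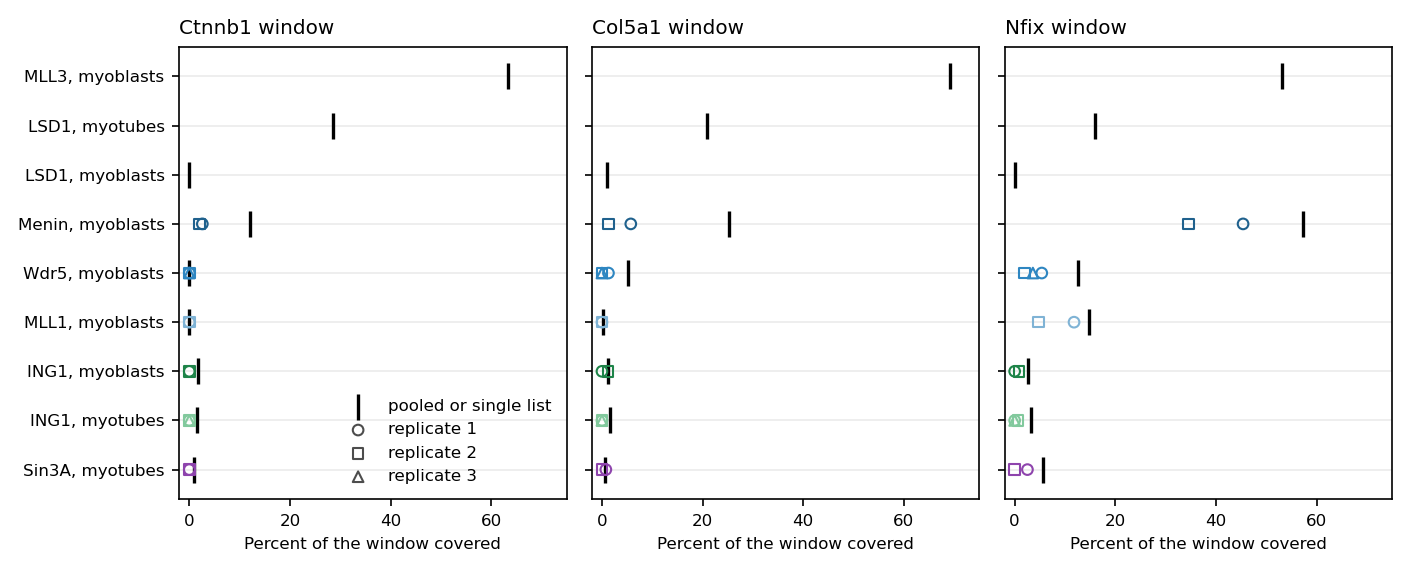
Percent of each window covered (x axis) by the pooled or single list of each factor (black tick) and by its replicate lists (open circle, square and triangle for replicates 1, 2 and 3). Only at Nfix do all replicate lists of Menin, Wdr5 and MLL1 lie above 0 (45.4% and 34.6% for Menin).

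ING1 and Sin3A, a reader of trimethylated H3K4 and the scaffold of its deacetylase complex, took up little of any window. ING1 of myoblasts covered 1.79%, 1.2% and 2.57% of the Ctnnb1, Col5a1 and Nfix windows (2, 1 and 4 peaks; genome mean 0.264%). ING1 of myotubes covered 1.47%, 1.59% and 3.33% (1, 1 and 5 peaks; genome mean 0.301%), and Sin3A of myotubes 0.948%, 0.54% and 5.65% (1, 1 and 9 peaks; genome mean 0.453%). As much Sin3A as at Nfix was found in 0.416% of genome windows of that length. For ING1 of myoblasts and of myotubes the shares were 1.67% and 1.02%. At the other 2 windows such shares ran from 5.09% to 25.7%. Sin3A replicates 1 and 2 covered 2.54% and 0% of the Nfix window. Of the 65 MLL3 peaks, ING1 of myoblasts met 3, against 0.692% of all MLL3 peaks, ING1 of myotubes 3, against 0.829%, and Sin3A 6, against 1.33%. All 6 met by Sin3A were at Nfix, and 3 of the 10 wide MLL3 peaks met Sin3A, against 17.7% of wide ones. ING1 of myoblasts met 1 of the 10 wide ones, against 11.3%, and ING1 of myotubes 0, against 11.0%. Only 2 of the 9 pooled Sin3A peaks at Nfix (22.2%) were in a replicate list, against 63.4% of the pooled list. Both of these lay off MLL3. On MLL3 lay 2 of 7 ING1 myoblast peaks, against 18.7%, 2 of 7 ING1 myotube peaks, against 19.0%, and 6 of 11 Sin3A peaks, against 20.6%. These peaks were small and few next to the MLL3 stretches. Of the 4 LSD1 myoblast peaks, 2 lay on MLL3, against 19.5%, both at Col5a1.

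ING1 had replicate lists in both states and was the only factor whose windows could be compared between myoblasts and myotubes with an error. None of its 5 replicate lists had a peak in the Ctnnb1 window. At Col5a1 the myoblast replicates 1 and 2 covered 0% and 1.18% of the window and the 3 myotube replicates 0%, means of 0.588% ± 0.831 (SD, n = 2) and 0% (n = 3; two-sided exact permutation p = 0.8). At Nfix the myoblast replicates covered 0% and 0.828% and the myotube replicates 0%, 0.647% and 0%, means of 0.414% ± 0.585 (SD, n = 2) and 0.216% ± 0.374 (SD, n = 3; two-sided exact permutation p = 0.8). The groups overlapped at both windows, and no difference was larger than the spread between replicates. With 2 lists against 3, the exact permutation test cannot go below p = 0.2, whatever the values. At Col5a1 only myoblast replicate 2 was above 0, so the result given there was already the lowest that this test allows. The test could not have shown a difference at Col5a1, and no conclusion is drawn from it. The 5 ING1 lists held 126 to 5528 peaks, and every value above 0 came from replicate 2 of its state. Without myoblast replicate 2 the difference, myotube minus myoblast, went from -0.588 to 0.0 percentage points at Col5a1 and from -0.198 to 0.216 at Nfix.

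Lists other than MLL3 met in a few places, compact at Ctnnb1 and Col5a1 and mostly longer at Nfix. A cluster is a run of overlapping peaks from lists other than MLL3, so 1 long peak can join others that do not overlap each other. The 8 lists mix myoblasts and myotubes and count LSD1 and ING1 once in each state. A cluster therefore need not mean binding in the same cells. Clusters with at least 4 of the 8 lists made up 6.7% of 123816 clusters in the genome, and those with all 8 lists 0.69%. Those that overlapped a window numbered 1 at Ctnnb1, 1 at Col5a1 and 5 at Nfix, 7 in all, of which 2 had all 8. They were 1340 bp wide at Ctnnb1, 3952 bp at Col5a1 and 4219 to 17304 bp at Nfix. The leftmost at Nfix reached into its window only with a Menin peak. The number of all clusters in the windows is not given here, so the 7 cannot be set against the genome share.

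At Ctnnb1 the cluster, chr9:120842022-120843361, stood just outside the MLL3 domain. It held Menin, Sin3A, ING1 of myotubes and ING1 of myoblasts in 1340 bp, had no MLL3 and ended 267 bp before the widest MLL3 peak of the genome. Menin was the only one of these in a replicate list (replicate 2). Peaks of 3 lists began beside the left edge of the MLL3 peak: LSD1 of myotubes 5 bp, Menin 28 bp and ING1 of myoblasts 46 bp before it. A left edge within 10 bp of that of an MLL3 peak was found for 1 of the 64 LSD1 myotube peaks in the windows. The share was 0.588% over the whole LSD1 myotube list, of which 25.5% touched MLL3 at all. No LSD1 myotube peak lay to the left of the domain, 10 lay on it and 2 to its right. The Menin peak that begins there, chr9:120843601-120846248, was 2648 bp wide and was in both replicate lists. The widest LSD1 myotube peak of the window, chr9:120846552-120849909, was 3358 bp and lay wholly on MLL3.

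At Col5a1 all 8 lists met in a cluster at the left end, chr2:27741489-27745440, of which MLL3 covered 49.0%. All 3 LSD1 myoblast peaks of the window were in it, the widest chr2:27742844-27743570. So were the single peaks of MLL1 (chr2:27741957-27742325), Sin3A (chr2:27741888-27742778), ING1 of myoblasts (chr2:27741735-27743722) and ING1 of myotubes (chr2:27741902-27744530). The ING1 myotube peak, 2629 bp wide, ranked 41 of 9698 in its list. Both Menin replicates, Wdr5 replicate 1, ING1 myoblast replicate 2 and Sin3A replicate 1 had a peak there, and no replicate list of MLL1 or of ING1 in myotubes did. To the right of the cluster the only pooled or single lists with peaks, besides MLL3, were LSD1 of myotubes, Menin and Wdr5.

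LSD1 of myotubes thinned out from left to right along the Col5a1 window. Over stretches of 55.0 kb from left to right, LSD1 of myotubes covered 44.7%, 13.3% and 4.44%. MLL3 covered 81.2%, 70.9% and 55.1% of them, and the pooled Menin list 14.7%, 33.3% and 28.0%. The Menin replicates were lowest on the right instead, at 7.18%, 7.2% and 2.81% for replicate 1 and 2.91%, 0.865% and 0% for replicate 2. These values rest on few peaks, 3, 6 and 3 for replicate 1 and 1, 1 and 0 for replicate 2. LSD1 fell more steeply than MLL3 across the window. Its widest peak, chr2:27793352-27796916 (3565 bp), lay on MLL3 at the start of the middle stretch. The widest Menin peak, chr2:27741489-27744482 (2994 bp), and the widest Wdr5 peak, chr2:27741888-27745440 (3553 bp, rank 154 of 59248), were those of the cluster.

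The Nfix window had 2 sides. The last MLL3 peak ended at 87295226, and the 80.2 kb to its left were covered to 76.2% by MLL3 while the 34.8 kb to its right held none. Because the border was drawn from MLL3, its own values are fixed by the choice. To the left and right of it Menin covered 44.5% and 87.0%, MLL1 2.05% and 44.1%, Wdr5 4.28% and 31.6%, and LSD1 of myotubes 8.06% and 34.1%. ING1 of myoblasts covered 0% and 8.5%, ING1 of myotubes 1.3% and 8.0%, and Sin3A 4.18% and 9.05%. Each of the 7 lists was denser on the side without MLL3.

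The replicate lists gave the same order for the MLL complex members. Menin replicate 1 covered 28.6% on the left and 84.2% on the right, and replicate 2 covered 15.1% and 79.7%. MLL1 replicates covered 1.85% and 34.7%, and 0% and 15.8%. Wdr5 replicates covered 0.833% and 15.9%, 0.634% and 5.09%, and 1.38% and 8.79%. All 7 replicate lists of these factors were thus higher on the right. LSD1 has no replicate list, and of the ING1 and Sin3A replicates only ING1 replicate 2 of each state and Sin3A replicate 1 had a peak in the window.

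**Figure D5:**
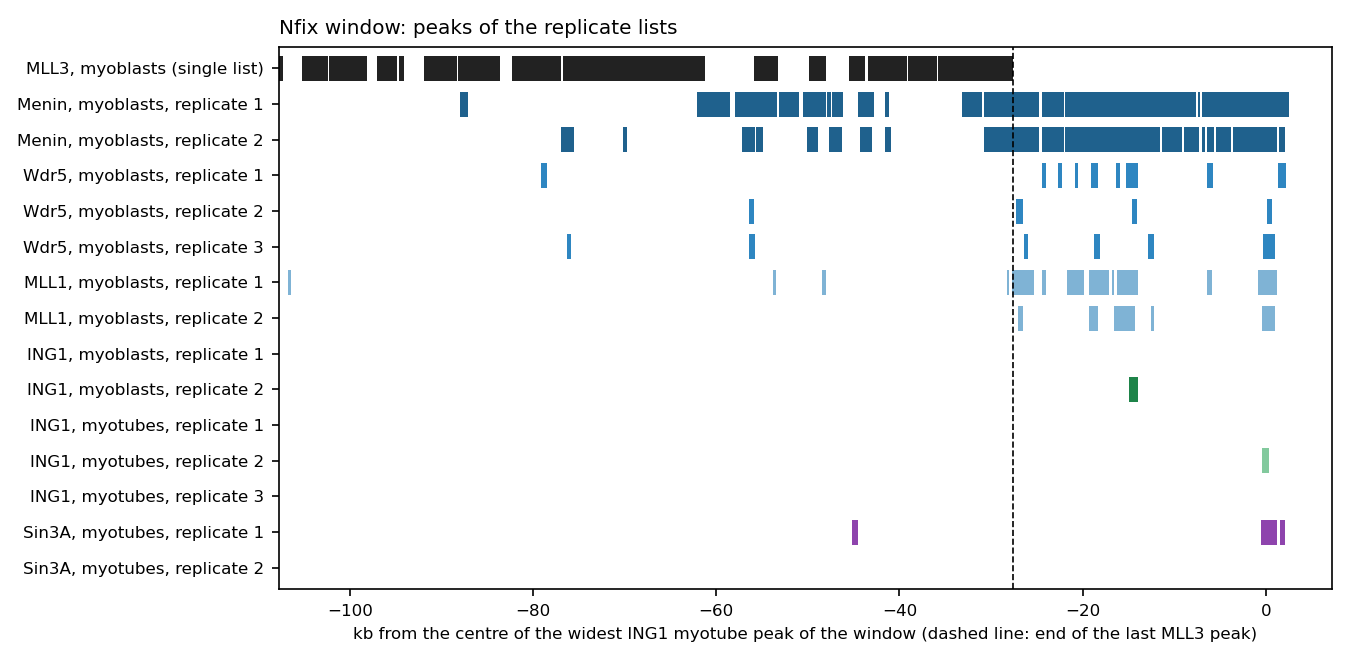
Peaks of the single MLL3 list and of the 14 replicate lists in the Nfix window. The x axis gives kb from the centre of the window's widest ING1 myotube peak, each bar is 1 peak, and the dashed line marks the end of the last MLL3 peak. Right of the line the Menin replicates cover 84.2% and 79.7%.

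Most of the right side lay under 2 long Menin peaks with most peaks of the other factors on them. The first, chr8:87298340-87315643, was 17304 bp wide, ranked 8 of 70050 Menin peaks and was in both replicates. On it lay peaks of MLL1, Wdr5, Sin3A, ING1 of myoblasts and LSD1 of myotubes, among them the widest MLL1 peak of the window, chr8:87300917-87305615, which was 4699 bp, ranked 31 of 8892 and was in both MLL1 replicates. The second, chr8:87315760-87325284, was 9525 bp and carried all 8 lists, including the only LSD1 myoblast peak of the window, chr8:87323043-87323200. The widest LSD1 myotube peak (chr8:87315845-87318268, 2424 bp) and the widest peaks of ING1 in myotubes (chr8:87322112-87323442), ING1 in myoblasts (chr8:87322561-87323846) and Sin3A (chr8:87322225-87323975) were also on it. Both long Menin peaks were free of MLL3. The right side also held the end of the Menin peak chr8:87289608-87298034 and a short one, chr8:87325439-87326055. Of the LSD1 myotube base pairs in the window, 84.8% were under Menin and 26.8% under MLL3, whereas at Ctnnb1 16.7% were under Menin and all but 5 bp under MLL3.

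The other 3 Nfix clusters touched MLL3. One at the left edge, chr8:87211230-87215448, lay mostly outside the window, held 7 lists without MLL1 and was covered to 85.6% by MLL3. Of its 7 lists only Menin had a peak of this cluster that reached into the window. The next, chr8:87260728-87269421, was a Menin peak with Wdr5, ING1 of myotubes, LSD1 of myotubes and Sin3A, covered to 39.0% by MLL3, and held the widest Wdr5 peak of the window, chr8:87264756-87268188 (3433 bp). The third, chr8:87289608-87298034, spanned the end of the last MLL3 peak and was covered by it to 66.7%. It held Menin, MLL1, Wdr5, Sin3A and LSD1 of myotubes, and its Menin peak was in both replicates.

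RefSeq lists Ctnnb1 and Col5a1 on the plus strand and Nfix on the minus strand. At Ctnnb1 and at Col5a1 the only cluster of at least 4 lists lay at the left end of the MLL3 stretch. At Nfix the cluster with all 8 lists lay to the right of MLL3. At Nfix the cluster with the next most, 7 lists, lay at the opposite end, mostly outside the left edge of the window. Whether the clusters sit on the start sites was not tested, since no mm9 annotation was used, and strands were looked up after the positions were seen.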

How the data were processed

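The deposited files hold peak boundaries from ChIP-seq, as chromosome, left and right end in bp, read from their values. Peaks carry no height and the sequencing depth is unknown, so list length moves with depth as well as binding. The submitters' processing notes name bedtools 2.17.0, Bowtie 0.12.9, SAMtools 0.1.19 and builds NCBIM37 and mm9. A peak caller, its cutoff and the way of pooling were not given in the sources used here. The LSD1 and MLL3 files are 1 merged list each.

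Left ends were read as counted from 0, starts are printed from 1, and mitochondrial peaks were left out. Peaks sharing at least 1 bp overlap. Genome windows are back-to-back windows of equal length that run from a chromosome's first to its last peak and include the named loci. Overlaps were computed with Python 3.11.15 and NumPy 2.4.6, exact tests and binomial intervals with SciPy 1.17.1, and figures with matplotlib 3.10.9, after tests on simulated peaks.

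Named peaks were, by rule, MLL3 peaks of at least 5 kb, each other list's widest peak, and clusters of at least 4 lists. The members and lists were chosen with earlier results of these data known. Left and right sides, parts of the Col5a1 window and CpG counts were chosen after values were seen. The design text puts Sin3A in myoblasts and its sample labels in myotubes, which were followed. MLL1 samples carry Menin as source, MLL in the title and MLL1 as antibody, and title and antibody were followed. Planned lists of β-catenin partners, collagens and NFI genes need an mm9 annotation and were not analysed here.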

Additional observations from a re-analysis of the deposited data

How the results depend on the processing

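Of 131 recomputed values, 81 were counted as the same, 48 moved, 1 lost its direction and 1 reversed. The rule differed by result. A share had to stay in its binomial interval, and an ING1 difference only had to keep its sign. An on-minus-off difference had to keep its sign and stay near its main value. A coverage had to stay within the replicate SD or, for a single list, in a binomial interval over base pairs, which are not independent. Of the 48, 42 were coverages of a window, mostly pooled against replicate lists. The share of MLL3 peaks with LSD1 of myotubes went from 30.8% to 18.5% with the LSD1 list shortened to its widest peaks (all MLL3 peaks 1.69% to 0.455%), an alternative added after seeing the data. The share with Menin went from 69.2% to 29.2% with the union of the replicate lists (all MLL3 peaks 9.02% to 3.04%), and to between 16.9% and 27.7% when a replicate was left out of it. The share with Wdr5 went from 15.4% to 7.69% with the union (all MLL3 peaks 6.12% to 1.13%), and to between 4.62% and 7.69% when a replicate was left out. The LSD1 coverage on minus off MLL3 kept its sign under the 4 alternatives run for each window, all added after seeing the data.

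For ING1, leaving out a replicate gave differences of -1.18 to 0.0 percentage points at Col5a1 and -0.612 to 0.216 at Nfix, reversed without myoblast replicate 2. At Ctnnb1 it stayed at 0.0. With the replicate number as a replicate block the differences were 0.0 at Ctnnb1, -0.588 at Col5a1 and -0.0904 at Nfix. The numbers do not pair the lists by any label. Deviations of same-numbered lists correlated at -0.322 for replicate 1 and 0.502 for replicate 2 over 15570 genome windows. The 2 myoblast lists deviate by equal and opposite amounts, so these values are not independent and cannot settle the pairing. Myoblast list 1 and myotube list 3 correlated at 0.669. With no counts, nothing below the authors' threshold can be seen in any list.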
